A study of Homo sapiens with 12 samples.

Results

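The 10 chemokine ligand genes described here are CCL2, CCL5, CCL20, CXCL1, CXCL2, CXCL3, CXCL8, CXCL10, CXCL11 and CXCL16, taken by gene symbol from the 58735 genes of the count table. They were chosen by name with earlier results of these same libraries known, so their levels and fold changes are given as a description, without p-values. The cells were MDA-MB-231, an established human breast cancer line of mesenchymal type, and each of the 12 libraries was made from total RNA of cells that carried a guide RNA. The groups, 3 libraries each, were a guide against UFM1 (sgUFM1), a guide against UFL1 (sgUFL1), control guides run for sgUFM1, and control guides run for sgUFL1. UFM1 is a ubiquitin-like protein and UFL1 the ligase that attaches it to its targets. The series title calls the treatment a knockdown and the design text a knockout, and neither the number of guides, nor clones, nor separate cultures are stated, so the spread between replicates may be technical.

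The count and FPKM tables disagree on 6 libraries. What the count table names sgUFL1, the FPKM table names the controls for sgUFM1, and the reverse. The labels do not settle which is right, so these 6 libraries are called set 1 (sgUFL1 in the count table, controls for sgUFM1 in the FPKM table) and set 2 (controls for sgUFM1 in the count table, sgUFL1 in the FPKM table). The other 6 libraries, sgUFM1 and the controls for sgUFL1, are named alike in both tables.

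Chemokines are small secreted proteins that attract leukocytes through G-protein-coupled receptors. CCL2 attracts monocytes through CCR2, CCL5 attracts T cells and monocytes, and CCL20 is the ligand of CCR6. CXCL1, CXCL2, CXCL3 and CXCL8 attract neutrophils through CXCR2, and CXCL8 also through CXCR1. CXCL10 and CXCL11 are induced by interferons and attract activated T cells through CXCR3, while CXCL16, the ligand of CXCR6, is made as a membrane protein and shed by proteases. Transcription factors of the NF-kB family drive most of these genes, and transcripts of the neutrophil-attracting group carry AU-rich stretches in the 3′ UTR through which their decay is controlled.

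The genes lie in a few clusters (GRCh38 coordinates as in the count table). CXCL8 (chr4:73740506-73743716), CXCL1 (chr4:73869393-73871242), CXCL3 (chr4:74036589-74038807) and CXCL2 (chr4:74097035-74099293) neighbour each other, and CXCL10 (chr4:76021117-76023497) and CXCL11 (chr4:76033682-76041415) form another pair on the same chromosome. CCL2 (chr17:34255218-34257203) and CCL5 (chr17:35871491-35880793) are on chromosome 17, as is CXCL16 (chr17:4733526-4739922), and CCL20 (chr2:227805739-227817564) is on chromosome 2. The exons of CXCL16 overlap those of MED11 on the other strand, and since the strand of the libraries is not given, their reads cannot be told apart. Coding sequences of CXCL1 and CXCL2 were 93.5% identical, those of CXCL2 and CXCL3 94.4% and those of CXCL1 and CXCL3 90.7%. Between 0.573% and 5.73% of the 50-base windows of their transcripts were shared exactly, so reads from those stretches could have been split or dropped and their separate levels carry that uncertainty. No 50-base window was shared by any other pair of the 10 genes.

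RefSeq promoter sequence (GRCh38.p14, 250 bases before the start) was at hand for 7 of the 10 genes. CCL2, CCL5 and CXCL16 had no entry. The stretches below are shown because 6 of the 7 carried GGAANTTCC, a form of the NF-kB binding motif, within 200 bases of the start, and the genes that carry it did not all follow the same course across libraries. Each is 30 bases, 5′ to 3′ on the gene's strand, and capitals mark the match. The start is RefSeq's. The gene spans of the count table begin elsewhere for some genes, so that the 30 bases of CXCL2, CXCL3 and CXCL11 lie inside those spans, while those of CXCL1, CXCL8 and CXCL10 lie before them.
CXCL1 (chr4:73869304-73869333, plus strand): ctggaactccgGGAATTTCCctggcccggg
CXCL2 (chr4:74099254-74099283, minus strand): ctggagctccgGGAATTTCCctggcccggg
CXCL3 (chr4:74038749-74038778, minus strand): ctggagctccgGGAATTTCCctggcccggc
CXCL8 (chr4:73740467-73740496, plus strand): ttgcaaatcgtGGAATTTCCtctgacataa
CXCL10 (chr4:76023655-76023684, minus strand): gaggagcagagGGAAATTCCgtaacttgga
CXCL11 (chr4:76036127-76036156, minus strand): gactcaaagagGGAAATTCCtgtgccataa

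The motif reads the same on both strands and was found in 0.826% of 35116 promoters searched over the same 250 bases. It began 78 bases before the start in CXCL1 and CXCL3, 77 in CXCL2, 91 in CXCL8, 75 in CXCL11 and 176 in CXCL10. CCL20 had no match to these letters, but held another NF-kB consensus that 9.96% of promoters hold. CXCL1, CXCL2, CXCL3, CXCL10 and CXCL11 held that consensus as well, and CXCL8 did not. The AP-1 motif TGANTCA, present in 6.57% of promoters, was found in CXCL8 and CXCL11. An interferon response element (GAAA, any 2 bases, GAAA; 3.02% of promoters) was found in CXCL10. These are matches of letters and say nothing of binding in these cells.

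The 3′ UTRs divide the genes along other lines. The pentamer ATTTA occurred 10 times in the 3′ UTR of CXCL2, 9 times in CXCL8, 7 times in CXCL3 and 5 times in CXCL1, which is 7.08 to 13.9 per kb. CCL20 had 3 copies in a shorter 3′ UTR, or 6.24 per kb, close to CXCL1. CCL2, CXCL10, CXCL11 and CXCL16 had 1 each, at 0.900 to 2.66 per kb, and CCL5 had 0. Over 19347 protein-coding genes the median density was 1.44 per kb and the 90th percentile 4.67 per kb, and 28.4% of genes had 5 or more copies.

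Library totals ran from 15342793 to 18033331 counts. The mean GC content of the counted genes was 49.1% to 50.3% in the sgUFM1, set 1 and set 2 libraries, against 47.6% to 48.7% in the controls for sgUFL1. UFM1 averaged 39.0 ± 1.32 CPM (counts per 1000000 counts of the library) in sgUFM1 libraries, 53.0 ± 1.83 in set 1, 53.4 ± 1.19 in set 2 and 66.0 ± 5.74 in the controls for sgUFL1 (SD, n = 3 each), and fell in sgUFM1 libraries against each of the other groups (edgeR quasi-likelihood test, adjusted p from 0.00012 to 0.01). UFL1 was lowest in set 2, at 12.4 ± 1.02 CPM, against 23.2 ± 2.34 in sgUFM1 libraries, 17.8 ± 0.670 in set 1 and 25.0 ± 5.29 in the controls for sgUFL1. Against those controls UFL1 fell by 1.02 log2 units in set 2 (adjusted p = 0.0017), while in set 1 its log2 fold change was -0.45 (adjusted p = 0.13). The exons of UFL1 overlap those of UFL1-AS1 on the other strand. As for CXCL16, reads of the overlap cannot be told apart without the strand. The mesenchymal markers of the line were present (VIM 786 to 1051 CPM), and of 4 markers that the line is known to lack or hold at a low level, ESR1 and CDH1 stayed under 1 CPM, PGR reached 1.175 CPM and EPCAM lay at 5.67 to 9.90 CPM.

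A pair of libraries stood apart from their groups. In set 1 replicate 1, 143 of 11053 genes differed over 2-fold from the mean of the other 2 replicates, and in replicate 2 of the controls for sgUFL1 155 did, against 3 to 62 in the other 10 libraries. Across genes their deviations from the group means ran opposite to each other (r = -0.81; genes are not independent replicates). The deviations of set 1 replicate 1 had r = 0.55 and 0.46 with those of control replicates 1 and 3, and the deviations of control replicate 2 had r = 0.63 and 0.70 with those of set 1 replicates 2 and 3. Deviations within a group cancel out for each gene. Positive values here therefore follow on balance from the r of -0.81 and add no separate evidence. The labels were kept as given, and whether this pair was exchanged was not tested. The neutrophil-attracting CXCL genes and CXCL11 were among the genes concerned, so the ligands' fold changes in these groups are given with and without the pair. For the other gene lists some of the calls that moved are given.

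CCL2, the monocyte attractant, was low in 2 of the 4 groups and nothing lay between. It had 49.7, 52.0 and 55.9 CPM in the sgUFM1 libraries, 158, 153 and 143 CPM in set 1, and 61.1, 64.4 and 71.2 CPM in set 2, against 188, 181 and 150.1 CPM in the controls for sgUFL1. The 6 libraries of sgUFM1 and set 2 spanned 49.7 to 71.2 CPM and the other 6 spanned 143 to 188 CPM, with a 2.01-fold step between the ranges. The libraries that stood apart did not do so for CCL2: set 1 replicate 1 and control replicate 2 lay within 0.1 log2 units of the mean of their group's other replicates. Whether fewer cells made CCL2 or each cell made less cannot be told apart in bulk RNA.

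CXCL1, the most abundant member by mean level per gene length, also split the libraries, but along another line. It had 327, 326 and 349 CPM in the sgUFM1 libraries, 139, 324 and 316 CPM in set 1, and 162, 168 and 176 CPM in set 2, against 141, 335 and 153 CPM in the controls for sgUFL1. The upper 6 libraries spanned 316 to 349 CPM and the lower 6 spanned 139 to 176 CPM. The upper range held all 3 sgUFM1 libraries, set 1 replicates 2 and 3, and control replicate 2. The lower range held all 3 libraries of set 2, set 1 replicate 1 and control replicates 1 and 3. Set 1 and the controls therefore overlapped over most of their range, while sgUFM1 and set 2 did not overlap.

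CXCL2 and CXCL3, the close copies of CXCL1, put the same libraries into the same ranges. CXCL2 had 52.0, 51.4 and 45.5 CPM in the sgUFM1 libraries, 25.6, 39.7 and 41.6 CPM in set 1, and 18.5, 20.7 and 19.8 CPM in set 2, against 26.0, 40.2 and 20.6 CPM in the controls for sgUFL1. CXCL3 had 53.2, 47.3 and 50.4 CPM in the sgUFM1 libraries, 19.4, 42.6 and 41.6 CPM in set 1, and 21.0, 20.02 and 24.2 CPM in set 2, against 25.0, 38.9 and 20.3 CPM in the controls for sgUFL1. For both genes the step between ranges was narrower than for CXCL1, 1.53-fold for CXCL2 and 1.56-fold for CXCL3 against 1.80-fold for CXCL1.

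CXCL8, which encodes interleukin-8, had the most reads of the 10 genes and varied least among the abundant ones. It had 363, 386 and 409 CPM in the sgUFM1 libraries, 204, 338 and 315 CPM in set 1, and 231, 232 and 243 CPM in set 2, against 261, 394 and 293 CPM in the controls for sgUFL1. Its values formed no clear ranges, since the widest step between neighbours was 1.13-fold. The libraries that stood apart did so here too: set 1 replicate 1 was the lowest of all 12, and control replicate 2 was the second highest.

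**Figure D1:**
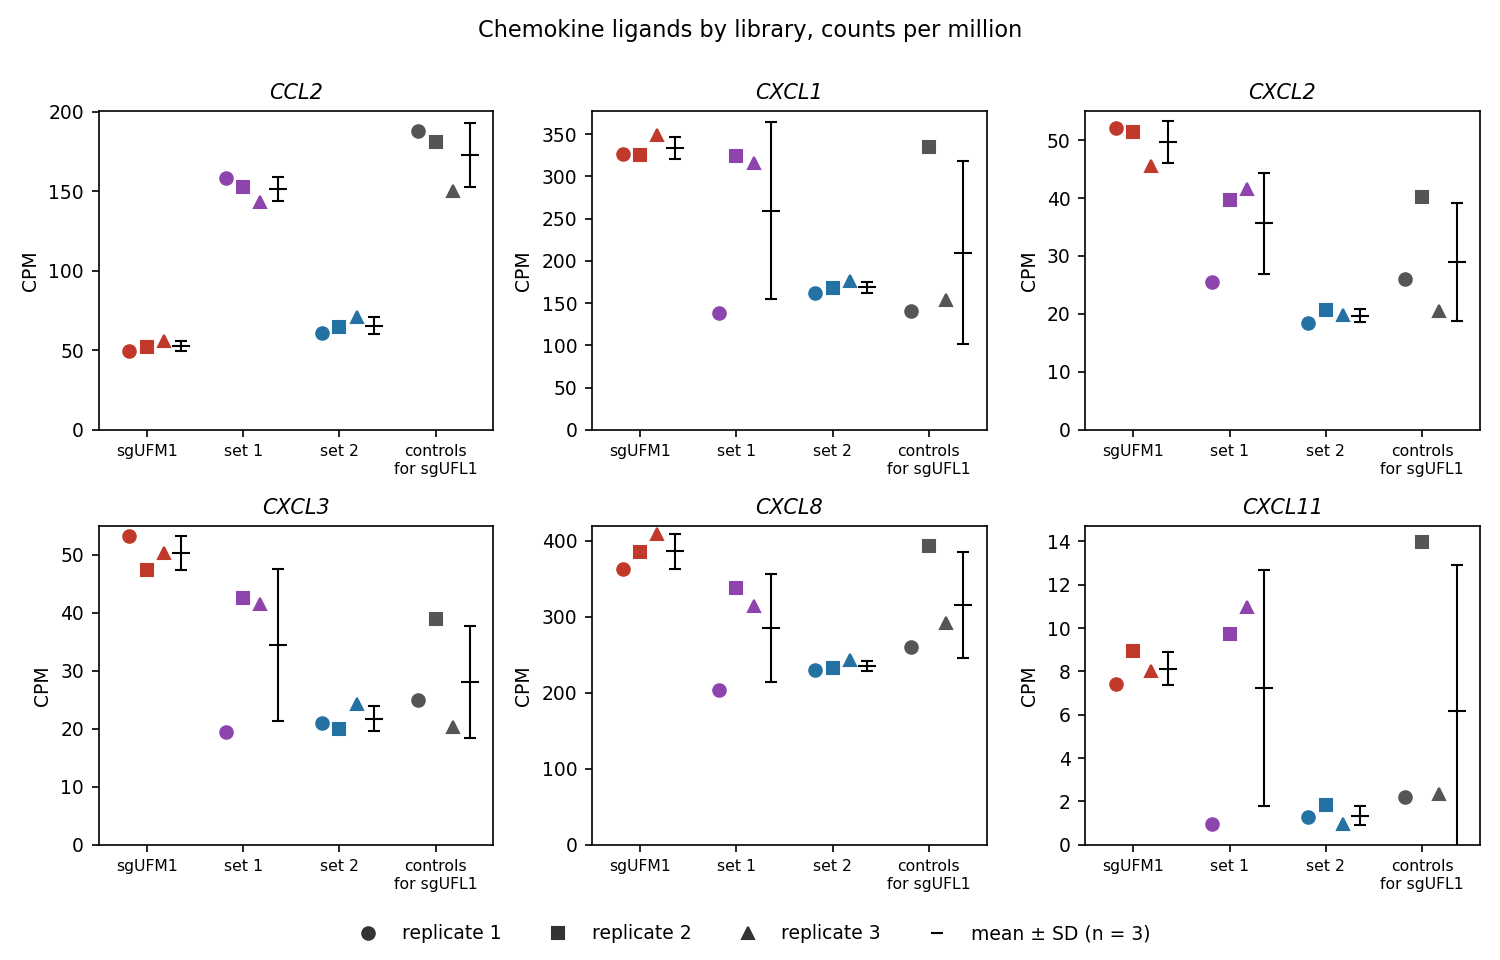
CPM (vertical axis, linear from 0) of 6 chemokine ligands in each library, by group; symbols mark the replicate, and black bars the mean ± SD of 3 libraries, cut off at 0. CCL2 is low in sgUFM1 and set 2 and high elsewhere, while CXCL1, CXCL2, CXCL3 and CXCL11 are high in sgUFM1, set 1 replicates 2 and 3 and control replicate 2.

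Set side by side, CCL2 and CXCL1 placed the 12 libraries in 4 corners of 3 each. The sgUFM1 libraries had low CCL2 with high CXCL1, and the libraries of set 2 had low CCL2 with low CXCL1. Set 1 replicates 2 and 3 and control replicate 2 had both high, and set 1 replicate 1 and control replicates 1 and 3 had high CCL2 with low CXCL1. The ratio of CCL2 counts to CXCL1 counts was 0.152 to 0.160 in the sgUFM1 libraries, 0.454 to 1.14 in set 1 and 0.376 to 0.405 in set 2, against 0.541 to 1.33 in the controls for sgUFL1. This ratio was lowest in all 3 sgUFM1 libraries and did not overlap with any other group. Over the 12 libraries it ranged 8.76-fold, whereas the ratio of CXCL2 to CXCL1 ranged 1.63-fold, CXCL3 to CXCL1 1.53-fold and CXCL1 to CXCL8 1.92-fold. The proportions among the neutrophil attractants thus varied less over the libraries than that of CCL2 to CXCL1.

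**Figure D2:**
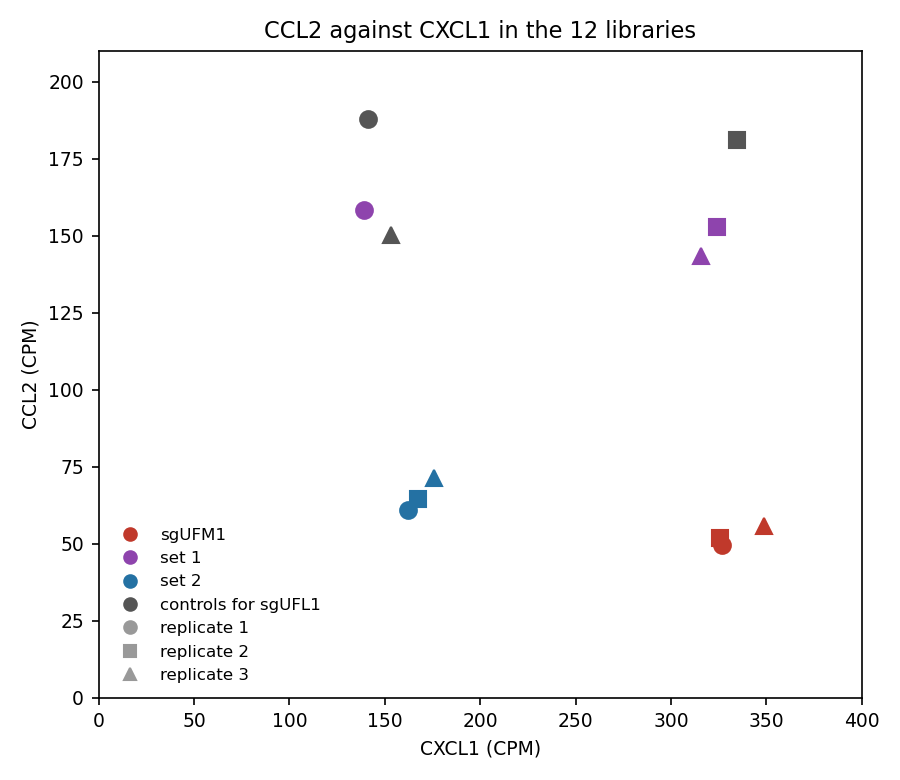
CCL2 (vertical axis, CPM) against CXCL1 (horizontal axis, CPM), one point for each of the 12 libraries; colours mark the group and symbols the replicate. CCL2 lies at 49.7 to 71.2 CPM or at 143 to 188 CPM, CXCL1 at 139 to 176 CPM or at 316 to 349 CPM, and each of the 4 corners holds 3 libraries.

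CXCL11, one of the interferon-induced ligands, was scarce but showed the widest step of the members with the CXCL1 split. It had 7.42, 8.93 and 8.03 CPM in the sgUFM1 libraries, 0.969, 9.71 and 10.97 CPM in set 1, and 1.28, 1.83 and 0.936 CPM in set 2, against 2.20, 14.0 and 2.34 CPM in the controls for sgUFL1. The same 6 libraries as for CXCL1 made up its upper range, and the step between the ranges was 3.17-fold. CXCL11 lies within the span of ART3 on the other strand without sharing exons with it.

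CXCL10, its neighbour and the ligand of the same receptor, was counted by single reads. The sgUFM1 libraries had 19, 17 and 11 reads, set 1 had 2, 12 and 19, and set 2 had 5, 5 and 7, against 7, 1 and 0 in the controls for sgUFL1. The library with 0 reads allows up to 0.190 CPM (3 reads). Unlike CXCL11, CXCL10 was not high in control replicate 2, and its order of libraries rests on few reads.

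CCL20, the ligand of CCR6, was highest in the sgUFM1 libraries. These had 50, 76 and 47 reads, set 1 had 20, 28 and 36 and set 2 had 35, 23 and 30, against 34, 46 and 31 in the controls for sgUFL1. The lowest sgUFM1 library, at 2.97 CPM, lay above the highest of the other 9, at 2.702 CPM. CXCL16, the membrane-anchored ligand, had 11 to 21 reads in the sgUFM1 libraries, 14 to 19 in set 1 and 19 to 21 in set 2, against 18 to 31 in the controls for sgUFL1. CCL5 had 6 to 10 reads in the sgUFM1 libraries, 6 to 17 in set 1 and 4 to 8 in set 2, against 3 to 6 in the controls for sgUFL1, and passed the filter on low counts in no comparison. For CXCL16 and CCL5 the sgUFM1 libraries overlapped each other group.

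**Figure D3:**
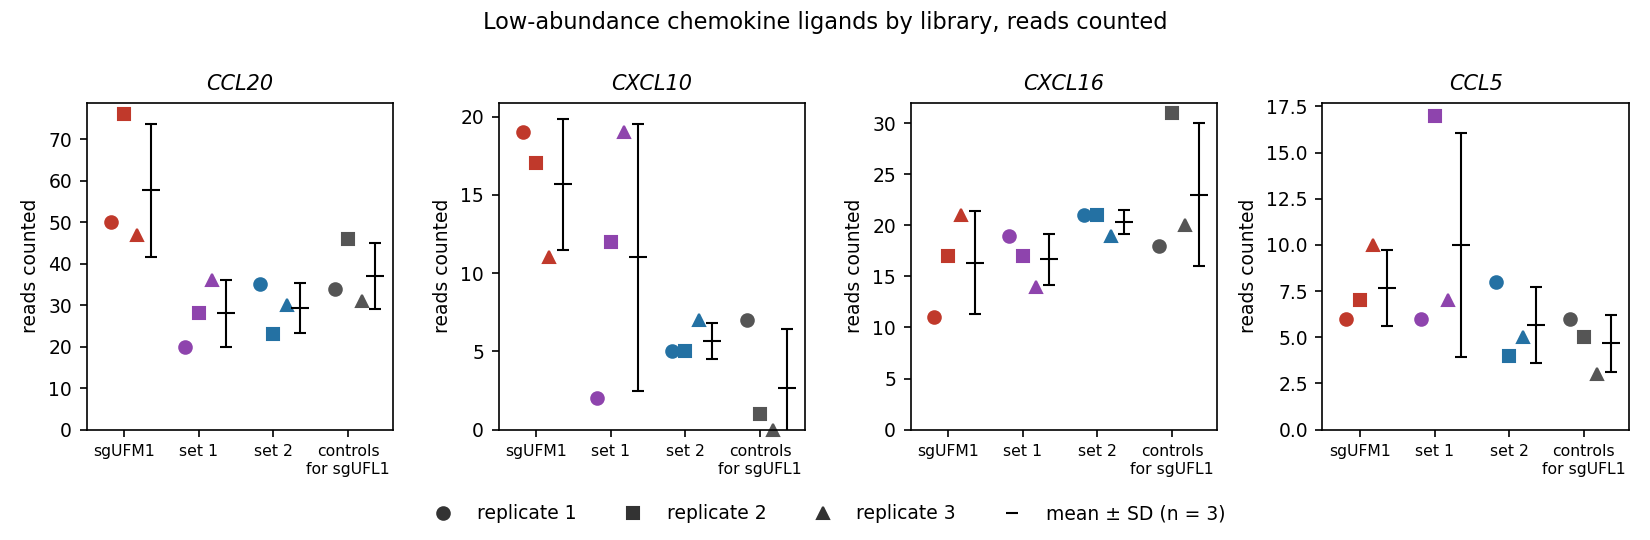
Reads counted (vertical axis, linear from 0) for the 4 least abundant ligands in each library, by group; symbols mark the replicate and black bars the mean ± SD of 3 libraries, cut off at 0. CCL20 in the sgUFM1 libraries lies at 47 to 76 reads, all above the other 9 libraries, and CXCL10 ranges from 0 to 19 reads.

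Divided by gene length, CXCL1 stood at 258 ± 9.99 CPM per kb in the sgUFM1 libraries and CXCL8 at 169.8 ± 10.1, followed by CXCL2 at 33.1 ± 2.39, CCL2 at 26.5 ± 1.58 and CXCL3 at 22.7 ± 1.32 (SD, n = 3 each). In the controls for sgUFL1 the order of these levels per length was CXCL1 at 162 ± 83.8, CXCL8 at 139 ± 30.5, CCL2 at 87.1 ± 10.1, CXCL2 at 19.3 ± 6.77 and CXCL3 at 12.7 ± 4.35 CPM per kb. There CXCL2 lay above CXCL3 in all 3 libraries, at 17.3 against 11.3, 26.8 against 17.5 and 13.7 against 9.15 CPM per kb. CXCL1 and CXCL8 did not keep the same order in each library. In control replicates 1 and 3 CXCL8 stood above CXCL1, at 114.7 against 108.8 and at 128.6 against 118.2 CPM per kb. The other 5 members were at 4.26 CPM per kb or below in both groups.

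Fold changes were fitted on all genes of the table in edgeR, each comparison with its own 6 libraries, and a gene is called where its adjusted p is under 0.05. The comparisons share libraries, the sgUFM1 group in 3 of them and the controls for sgUFL1 in 3, so they are not independent of each other. Because the members were chosen with results of these contrasts known, the counts below are set beside the share of all genes called and nothing is read from them.

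Against set 2, the sgUFM1 libraries had 7 members called higher and 1 lower, of 9 that passed the filter. Over all 15083 genes tested, 19.3% were called higher and 18.5% lower. The log2 fold change was 2.56 (SE 0.23) for CXCL11, 1.57 (0.48) for CXCL10, 1.32 (0.09) for CXCL2, 1.20 (0.09) for CXCL3, 1.10 (0.28) for CCL20, 0.97 (0.06) for CXCL1 and 0.70 (0.06) for CXCL8. CCL2 went the other way at -0.33 (SE 0.08), 52.5 ± 3.15 CPM in the sgUFM1 libraries and 65.6 ± 5.16 CPM in set 2 (SD, n = 3 each). CXCL16 was not called. Neither library that stood apart enters this comparison. By the count table's names it sets sgUFM1 against its own controls, and by the FPKM table's names it sets sgUFM1 against sgUFL1.

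**Figure D4:**
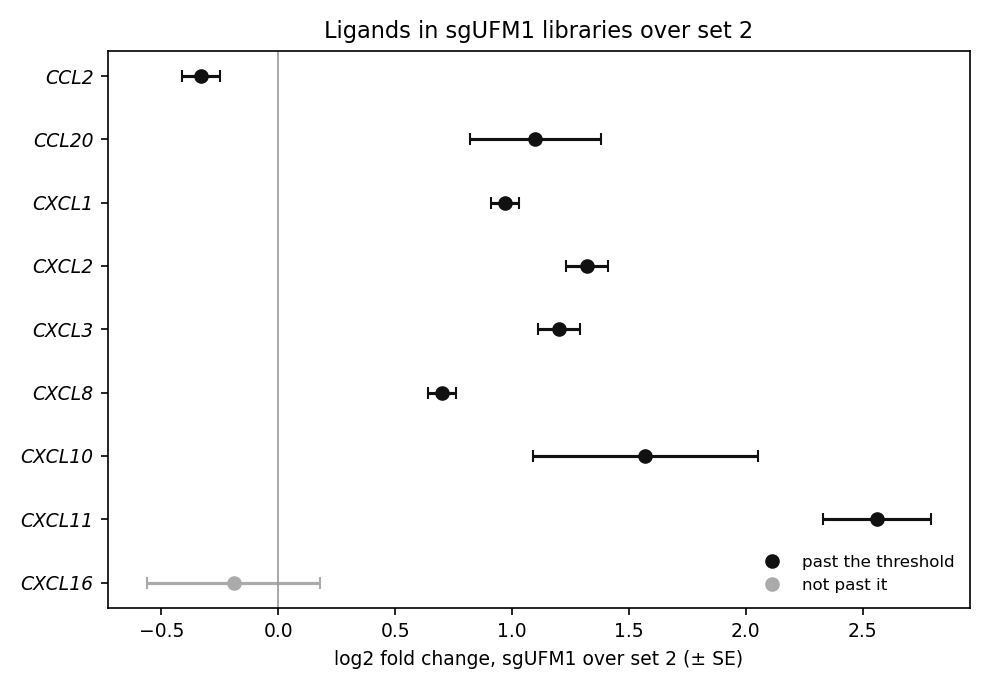
Log2 fold change (horizontal axis) of the 9 ligands that passed the filter, sgUFM1 over set 2, with bars of 1 SE from the edgeR fit; black points passed the threshold. CCL2 lies at -0.33, left of 0, and 7 other called ligands lie between 0.70 and 2.56.

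Against set 1, which the FPKM table names as the controls for sgUFM1, the sgUFM1 libraries had 0 members called higher and 1 lower, of 9 that passed the filter. Over all 14977 genes tested, 4.57% were called higher and 5.15% lower. At an unadjusted p under 0.05 the members past it numbered 4, beside 3890 of 14977 genes. DESeq2 called 1 member, beside 1690 of 29663 genes fitted. CCL2 had a log2 fold change of -1.55 (SE 0.08), with 52.5 ± 3.15 CPM in the sgUFM1 libraries and 151.5 ± 7.61 CPM in set 1. CXCL1 had 0.32 (SE 0.26), CXCL2 0.44 (0.17), CXCL3 0.51 (0.24), CXCL8 0.40 (0.17), CXCL11 0.12 (0.54) and CCL20 1.02 (0.32). Without set 1 replicate 1, CCL2 stayed at -1.56, while CXCL1 came to -0.00, CXCL2 to 0.23, CXCL3 to 0.20, CXCL8 to 0.18 and CXCL11 to -0.41, and 4 members were called, where 26.7% of all genes tested were called in either direction.

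Against the controls for sgUFL1, named alike in both tables, the sgUFM1 libraries had 3 members called higher and 1 lower, of 9 that passed the filter. Over all 15035 genes tested, 5.57% were called higher and 4.43% lower. CCL2 had a log2 fold change of -1.72 (SE 0.12), 52.5 ± 3.15 CPM in the sgUFM1 libraries and 173 ± 20.1 CPM in the controls. CXCL10 had 2.54 (SE 0.73), on 47 reads summed over the sgUFM1 libraries and 8 over the controls, CXCL3 had 0.83 (0.20) and CXCL2 0.76 (0.21). CXCL10 passed the filter only in comparisons with the sgUFM1 libraries, where it was high, so nothing is read from its call here or against set 2. Without control replicate 1, which held 7 of those 8 reads, CXCL10 had 4.69. CXCL1 had 0.65 (SE 0.27), CCL20 0.68 (0.30), CXCL11 0.35 (0.54) and CXCL8 0.28 (0.16), none of them called. Without control replicate 2, where 27.1% of all genes tested were called in either direction, 6 members were called: CCL2 at -1.65, CXCL1 at 1.21, CXCL2 at 1.12, CXCL3 at 1.18, CXCL8 at 0.51 and CXCL11 at 1.86. Without any one of the 3 sgUFM1 libraries CCL2 was the 1 member called, where 275 of 15423, 375 of 15406 and 463 of 15440 genes were called. Without control replicate 3 it was again the 1 member called (897 of 15398 genes), and without control replicate 1, 2 members were (650 of 15391 genes).

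Set 2 against the controls for sgUFL1, which is sgUFL1 against its own controls by the FPKM table's names, had 0 members called higher and 3 lower, of 8 that passed the filter. Over all 15175 genes tested, 17.4% were called higher and 18.4% lower. CCL2 had a log2 fold change of -1.40 (SE 0.12), 65.6 ± 5.16 CPM in set 2 and 173 ± 20.1 CPM in the controls. CXCL11 had -2.22 (SE 0.63) and CXCL8 -0.43 (0.15), while CXCL1 had -0.33 (0.26), CXCL2 -0.56 (0.22) and CXCL3 -0.38 (0.21). DESeq2 called 4 members here, beside 5380 of 30071 genes fitted. By edgeR 4 members had an unadjusted p under 0.05, beside 7040 of all 15175 genes tested. Without control replicate 2, CCL2 stayed at -1.33 and was the 1 member called, where 44.9% of all genes tested were. CXCL11 then came to -0.71, CXCL8 to -0.20, CXCL1 to 0.23, CXCL2 to -0.20 and CXCL3 to -0.02. Without set 2 replicate 1 or 3, 1 member was called, where 4539 of 15481 and 2672 of 15646 genes tested were called. Without control replicate 3, 5 members were called, where 4114 of 15591 genes were. With offsets for GC content and length, CXCL8, whose gene has 33.4% GC, came to 0.07, while CCL2 stayed called at -1.20.

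Set 1 against the controls for sgUFL1, which is sgUFL1 against its own controls by the count table's names, had 0 of 8 members called. Over all 14996 genes tested, 1.08% were called higher and 0.02% lower. DESeq2 also called 0 members, beside 1696 of 29654 genes fitted. By edgeR 0 members had an unadjusted p under 0.05, beside 4205 of all 14996 genes tested. CCL2 had a log2 fold change of -0.15 (SE 0.12), 151.5 ± 7.61 CPM in set 1 and 173 ± 20.1 CPM in the controls. CXCL1, CXCL2 and CXCL3 each had 0.34, with SE of 0.28 to 0.40. Without both libraries that stood apart, where 31.9% of all genes tested were called, 5 members were called: CXCL11 at 2.30, CXCL1 at 1.24, CXCL3 at 1.01, CXCL2 at 0.92 and CXCL8 at 0.35, while CCL2 came to -0.07. In the fits with both libraries the SE of CXCL1 was 0.40, against 0.10 without them.

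**Figure D5:**
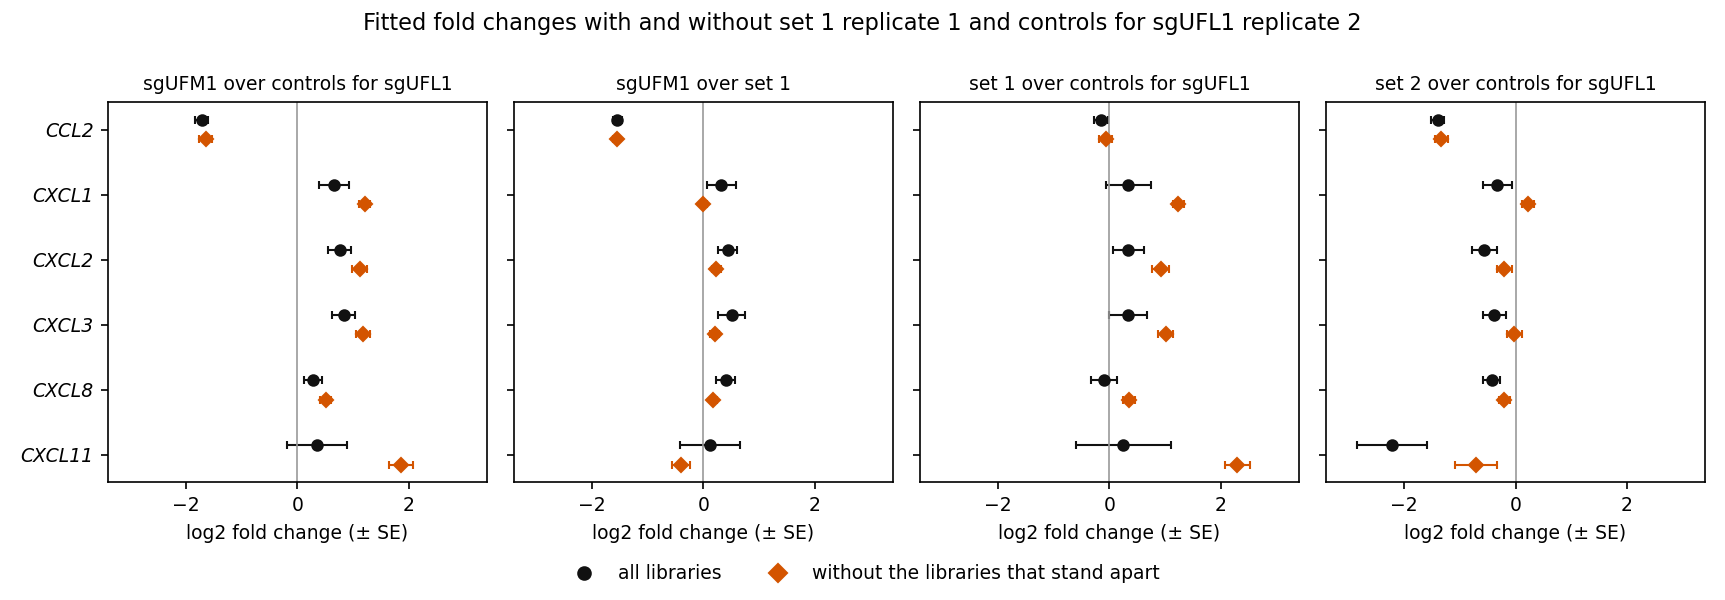
Log2 fold change (horizontal axis) of 6 ligands in 4 comparisons, with bars of 1 SE from the edgeR fit; black circles use all libraries and orange diamonds leave out set 1 replicate 1, control replicate 2, or both where both enter. CCL2 hardly moves, while CXCL1, CXCL2, CXCL3 and CXCL11 shift with these 2 libraries, most of all in set 1 over the controls (CXCL1 0.34 with them and 1.24 without).

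Of 10535 protein-coding genes with a mean of at least 5 CPM, those most like CCL2 over the 12 libraries were MMP1 (Pearson r of log2 CPM 0.986), FDFT1 (0.965), MYH13 (0.959), PARP1 (0.955) and SAMSN1 (0.942). MMP1, the interstitial collagenase, averaged 1048 CPM in the sgUFM1 libraries, 6019 in set 1 and 1740 in set 2, against 6916 in the controls for sgUFL1, the same order of groups as CCL2. Most like CXCL8 were PDIA3 (0.987), NT5E (0.978), MCL1 (0.972), TMEM87A (0.964) and IFIT1 (0.960). Most like CXCL10 were SLC37A1 (0.889), NRM (0.872), SLC39A7 (0.871), FBXW4 (0.868) and CTSD (0.860), with the low read counts of CXCL10 on one side of each pair. These values come from the same 12 libraries, which fall into groups, and are given as a measure of likeness without a test.

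The gene lists from here on, like the members, were chosen with earlier results of these same libraries known. Their adjusted p-values are given as a description and are not tests of genes picked beforehand. Most other chemokine ligands were not measurable in this line. Of 37, 22 had no read in any library and 3 passed the filter. CX3CL1, the membrane-bound ligand fractalkine, rose in the sgUFM1 libraries against set 2, with 4.14, 1.499 and 2.72 CPM in the sgUFM1 libraries and 1.11, 1.33 and 1.25 CPM in set 2 (log2 fold change 1.17, SE 0.34; edgeR quasi-likelihood test, adjusted p = 0.011). Without sgUFM1 replicate 1 its log2 fold change was 0.77 and its adjusted p 0.13. Against the controls for sgUFL1 it was called without control replicate 2, at 2.31 (SE 0.49; adjusted p = 0.0042). Without both libraries that stood apart it was also called in set 1 against these controls, at 2.09 (SE 0.45, adjusted p = 0.0077). CCL26 and CCL28 were called in no comparison.

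Of 23 chemokine receptors 5 passed the filter, and CXCR4, the receptor of CXCL12, fell in the sgUFM1 libraries against all 3 other groups. It had 3.09, 4.04 and 4.11 CPM in the sgUFM1 libraries, 21.7, 11.4 and 7.29 CPM in set 1 and 14.5, 16.1 and 14.4 CPM in set 2, against 21.7, 9.81 and 20.6 CPM in the controls for sgUFL1. Its log2 fold change was -1.85 (SE 0.32) against set 1, -2.01 (0.16) against set 2 and -2.20 (0.27) against the controls for sgUFL1 (edgeR, adjusted p = 0.008, 6.8e-09 and 0.0008). Without set 1 replicate 1 the first of these was -1.38, and without control replicate 2 the last was -2.47, both still called; against set 1 the call ended without sgUFM1 replicate 2 or 3 (adjusted p = 0.064 and 0.06). CXCR4 ran the other way from CXCL1 in the libraries that stood apart, high in set 1 replicate 1 and low in control replicate 2. CCRL2, a receptor that binds ligands without signalling, rose against set 2 by 0.34 (SE 0.09; adjusted p = 0.0062). CCR7, CCR10 and CXCR6 were called in no comparison, and with all libraries no receptor was called between set 1 or set 2 and the controls for sgUFL1 (edgeR and DESeq2 both 0, with 0 at an unadjusted p under 0.05 by edgeR). Over all genes, 1.08% were called higher and 0.02% lower in set 1 against these controls, and 17.4% and 18.4% in set 2. Without both libraries that stood apart CXCR4 fell in set 1 against the controls, at -1.06 (SE 0.21; adjusted p = 0.0056), and without control replicate 2 it fell in set 2, at -0.46 (0.14; adjusted p = 0.014).

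NF-kB inducers, subunits and inhibitors changed in both directions. Of 20 genes 19 passed the filter, and in the sgUFM1 libraries against set 2, 7 rose and 2 fell (median log2 fold change 0.08, against 0.01 over all genes), beside 19.3% of all genes called higher and 18.5% lower. IL1B, the cytokine interleukin-1 beta, had 725 ± 46.0 CPM in the sgUFM1 libraries and 334 ± 13.4 CPM in set 2 (log2 fold change 1.11, SE 0.07; edgeR, adjusted p = 1.5e-10). IL6 rose by 1.09 (SE 0.10; adjusted p = 9e-08) and NFKBIZ, an inducible nuclear cofactor of NF-kB, by 0.63 (SE 0.08; adjusted p = 6.7e-06). NFKBIB, one of the cytoplasmic inhibitors, fell by 0.54 (SE 0.09; adjusted p = 0.00012). With GC and length offsets the counts were 7 and 1, where 5013 of 15083 genes were called in either direction.

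IL6 followed CXCL1 library by library. It had 27.7, 31.0 and 29.4 CPM in the sgUFM1 libraries, 15.6, 31.9 and 31.0 CPM in set 1 and 13.4, 14.1 and 13.5 CPM in set 2, against 16.4, 34.1 and 19.5 CPM in the controls for sgUFL1. Its 6 highest libraries were the 6 highest of CXCL1. The split was not particular to IL6, since the same 6 libraries were also the highest for IL1B, NFKBIZ and TNIP1. Of the lists below, ZC3H12A, MMP14 and IRF1 also had these as their 6 highest. For IRF1 the margin was slight, 35.65 CPM in control replicate 2 against 35.64 in set 2 replicate 1. The share of all genes with this split is not given here. Other genes, such as BIRC3 and TNFAIP3, did not divide the libraries this way.

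In the other comparisons the NF-kB list gave fewer calls or calls that moved with the libraries. In the sgUFM1 libraries against the controls for sgUFL1, 2 rose and 1 fell (5.57% and 4.43% over all genes), BCL3 by 0.69 (SE 0.15; adjusted p = 0.018), NFKB2 by 0.43 (0.11; adjusted p = 0.035) and BIRC3 at -0.68 (0.14; adjusted p = 0.012). Without control replicate 2 the counts were 7 and 3, where 27.1% of all genes tested were called in either direction. With GC and length offsets BCL3 had 0.28 (adjusted p = 0.14) and NFKB2 0.13 (adjusted p = 0.26), and both calls also ended without any one sgUFM1 library. Against set 1 (4.57% of all genes higher and 5.15% lower), IL1B rose by 0.50 (SE 0.13; adjusted p = 0.035), while NFKBIE at -0.45 (0.09; adjusted p = 0.011), NFKBIB at -0.65 (0.13; adjusted p = 0.012) and RELB at -0.40 (0.09; adjusted p = 0.025) fell. Without set 1 replicate 1 those counts were 3 and 7, where 26.7% of all genes tested were called in either direction. In set 1 against the controls RELB was the 1 call, at 0.73 (SE 0.14; adjusted p = 0.049; 1.08% of all genes higher and 0.02% lower). That call ended with GC and length offsets, at 0.10 (adjusted p = 0.83), with RLE scaling (0.054) and with the replicate block (0.055). Without both libraries that stood apart 10 of the list rose and 2 fell, where 31.9% of all genes tested were called in either direction. In set 2 against the controls 4 rose and 7 fell (17.4% and 18.4% over all genes), led by BIRC3 at -1.06 (SE 0.15; adjusted p = 0.00078), with BCL3 at 0.72 (0.15; adjusted p = 0.004), IL1A at -1.96 (0.42; adjusted p = 0.0042) and CHUK at -0.50 (0.12; adjusted p = 0.0073). With GC and length offsets 0 rose and 3 fell, where 1376 of 15175 genes were called in either direction.

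Of 14 interferon inducers, sensors and factors upstream of CXCL10 and CXCL11, 4 had no read in any library and 10 passed the filter. In the sgUFM1 libraries against set 2, 6 rose and 1 fell, beside 19.3% and 18.5% of all genes. The RNA sensors RIGI, by 0.55 (SE 0.09; edgeR, adjusted p = 4.7e-05), and IFIH1, by 0.65 (0.14; adjusted p = 0.00091), were higher, as was STING1 of the DNA-sensing pathway, by 0.35 (0.09; adjusted p = 0.0028). IRF3, the factor these sensors activate, fell by 0.49 (SE 0.08; adjusted p = 4.8e-05). With GC and length offsets the counts were 4 and 1, where 5013 of 15083 genes were called in either direction.

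STING1 was higher in the sgUFM1 libraries against every other group. It had 56.2, 57.2 and 51.4 CPM in the sgUFM1 libraries, 29.3, 40.1 and 35.0 CPM in set 1 and 40.6, 46.9 and 40.7 CPM in set 2, against 29.1, 35.1 and 21.5 CPM in the controls for sgUFL1. The sgUFM1 libraries overlapped no other group. Its log2 fold change against set 1 was 0.63 (SE 0.13; edgeR, adjusted p = 0.013, and 0.056 to 0.089 without any one sgUFM1 library) and against the controls 0.93 (0.17; adjusted p = 0.0065). Against these controls 2 of the 10 rose (IRF1 by 0.66, SE 0.19, adjusted p = 0.044), beside 5.57% of all genes. Without control replicate 2, 2 rose and 2 fell (IRF1 by 0.97, adjusted p = 7.2e-05), beside 27.1% of all genes called in either direction. Against set 1, 1 rose and 1 fell (IRF3 at -0.33, SE 0.09, adjusted p = 0.045), beside 4.57% and 5.15% of all genes. Without set 1 replicate 1, 2 rose and 2 fell, beside 26.7% of all genes called in either direction. In set 2 against the controls 2 rose and 4 fell, beside 17.4% and 18.4% of all genes, IRF3 at 0.58 (SE 0.12; adjusted p = 0.0034), RIGI at -0.58 (0.14; 0.0084) and STING1 at 0.58 (0.17; 0.019) among them, of which 0 were called with GC and length offsets (2 had an unadjusted p under 0.05, and DESeq2 without offsets called 6). Over all genes the offsets gave 1376 of 15175 called and 4028 at an unadjusted p under 0.05, and DESeq2 called 5380 of 30071. In set 1 against the controls edgeR called 0 of the list and DESeq2 2, with 3 at an unadjusted p under 0.05. Over all genes these were 165 of 14996, 1696 of 29654 and 4205 of 14996. Without both libraries that stood apart 2 rose, IRF1 at 1.23 (adjusted p = 0.00053) and STING1 at 0.68 (adjusted p = 0.012), and 2 fell. In that fit 31.9% of all genes were called in either direction.

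Among 8 factors that bind or cleave AU-rich transcripts, ZC3H12A, an endonuclease that degrades inflammatory transcripts, rose in the sgUFM1 libraries against set 2 by 0.71 (SE 0.09; edgeR, adjusted p = 3.7e-06) and against the controls for sgUFL1 by 1.07 (0.22; adjusted p = 0.012). It had 80.6, 67.5 and 70.5 CPM in the sgUFM1 libraries, 42.3, 59.7 and 65.1 CPM in set 1 and 40.5, 46.5 and 45.7 CPM in set 2, against 29.8, 49.0 and 23.9 CPM in the controls. The second of these calls ended without control replicate 1 (adjusted p = 0.064) or sgUFM1 replicate 1 (0.056), and without control replicate 2 the log2 fold change was 1.47 (adjusted p = 5e-06). Without both libraries that stood apart ZC3H12A also rose in set 1 against the controls, by 1.33 (SE 0.14, adjusted p = 0.00053). In set 2 against the controls it rose by 0.76 (SE 0.14, adjusted p = 0.00067) without control replicate 2. ZC3H12C rose against set 2 by 0.65 (SE 0.09; adjusted p = 1.9e-05). ZFP36, which promotes decay of such transcripts, rose in set 2 against the controls by 0.73 (SE 0.22; adjusted p = 0.022), a call that ended without any one library of set 2 (adjusted p 0.053 to 0.074). There ZC3H12C fell, at -0.66 (SE 0.13; adjusted p = 0.0026), and KHSRP, which promotes decay, rose by 0.38 (0.13; adjusted p = 0.04). With GC and length offsets none of these 3 was called in set 2 against the controls: ZFP36 had 0.31 (adjusted p = 0.33), ZC3H12C -0.13 (0.49) and KHSRP -0.05 (0.74). The call of KHSRP also ended without any one of the 6 libraries but control replicate 2 (adjusted p 0.062 to 0.16). HNRNPD, which binds AU-rich stretches, fell in the sgUFM1 libraries against set 1 by 0.34 (SE 0.08; adjusted p = 0.025), a call that ended with the replicate block (adjusted p = 0.059) and without replicate 2 or 3 of either group (adjusted p 0.086 to 0.16).

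Of 8 proteases that shed or trim chemokines 7 passed the filter, and MMP1 and MMP14 moved in opposite directions in the sgUFM1 libraries. MMP1 fell by 2.72 (SE 0.12) against the controls for sgUFL1, by 0.74 (0.06) against set 2 and by 2.54 (0.09) against set 1 (edgeR, adjusted p from 1.4e-08 to 8.9e-08), and in set 2 it fell by 1.99 (0.11) against the controls (adjusted p = 1.3e-06). MMP14, a membrane-bound metalloprotease, had 844, 792 and 773 CPM in the sgUFM1 libraries, 334, 654 and 647 CPM in set 1 and 459, 520.0 and 472 CPM in set 2, against 286, 523 and 217 CPM in the controls. It rose by 0.72 (SE 0.06; adjusted p = 5.7e-08) against set 2 and by 1.21 (0.25; adjusted p = 0.013) against the controls, a call that ended without control replicate 1 (adjusted p = 0.068) and stood at 1.71 (adjusted p = 3.6e-07) without control replicate 2. Without both libraries that stood apart MMP14 also rose in set 1 against the controls, by 1.49 (SE 0.12, adjusted p = 0.00022). In set 2 against the controls it rose by 0.98 (SE 0.12, adjusted p = 6.7e-05) without control replicate 2. ADAM17 and ADAM10, which shed membrane-bound ligands such as CXCL16 and CX3CL1, rose against set 2 by 0.29 (SE 0.08; adjusted p = 0.0056) and 0.28 (0.08; adjusted p = 0.0096). With GC and length offsets their log2 fold changes were -0.02 and -0.05 and neither was called. In set 2 against the controls ADAM17 fell by 0.32 (SE 0.12; adjusted p = 0.047), and with offsets it had 0.19 (adjusted p = 0.19).

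Leukocytes, the main source of several of these ligands in tissue, were looked for by 10 markers. Their summed level was 6.07 to 6.71 CPM in the sgUFM1 libraries, 3.99 to 4.98 in set 1 and 5.34 to 5.82 in set 2, against 3.67 to 4.64 in the controls for sgUFL1. CD3E and MS4A1 had 0 reads in every library and PTPRC at most 0.378 CPM, and most of the sum came from CD14 and CSF1R. Their part in the ligand levels was not tested. The summed markers of fibroblasts and endothelium, 10 genes, were at 13.6 to 17.4 CPM in the sgUFM1 libraries, 12.1 to 24.7 in set 1 and 18.02 to 20.3 in set 2, against 10.5 to 21.1 in the controls, with COL1A2 and LUM at or near 0 and most of the sum from COL1A1, at 5.35 to 16.9 CPM over the 12 libraries, and KDR, at 2.53 to 9.05 CPM. Their part in the ligand levels was not tested either.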

How the data were processed

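The authors deposited whole-number read counts per gene and FPKM values for the 12 libraries. The submitters' processing notes name STAR 2.7.7a, featureCounts 2.0.0, fastp 0.20.1 and the build GRCh38, and strand and settings were not stated. FPKM values times gene length were matched to count columns over 12320 genes (SD of the log2 ratio at most 6.5e-10 for the match and at least 0.193 for the next best), which showed the exchanged names. The tests used the counts alone. In edgeR 4.0.16 (R 4.3.3), genes that passed filterByExpr were scaled by TMM and tested two-sided with the quasi-likelihood F test, one comparison at a time, with Benjamini-Hochberg adjusted p under 0.05 over all genes as the threshold. The fit was tested on simulated data. CPM are counts per 1000000 of the library total. The members and the 6 gene lists were chosen with earlier results of these data known. All members are named, up to 4 called genes per list and comparison by smallest p (not every one is reported here), and the 5 genes most like CCL2, CXCL8 and CXCL10. Alternatives were RLE scaling, no filter, DESeq2 1.42.0, a replicate block, offsets for GC content and length (lowess, span 0.3), each library left out in turn, and, chosen after seeing the data, both libraries that stood apart left out. Replicates of a group differed by more than sampling noise, and each was counted as 1 sample. That spread does not show that they came from separate cultures.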

Additional observations from a re-analysis of the deposited data

Results flagged for a closer look

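The effect of the sgUFM1 guide and that of the sgUFL1 guide, each against its own controls, pointed in opposite directions for some ligands, with every library of one guide above and every library of the other below the mean of its controls. The difference of the effects was not tested. For CCL20 this held under both sets of names, with a difference of sgUFM1 effect minus sgUFL1 effect of 1.47 log2 units under the count table's names and 1.46 under those of the FPKM table. Under the count table's names this needed control replicate 2. Set 1 replicate 3 had 2.244 CPM, against a control mean of 2.268 with that replicate and 2.051 without it. CCL20 was called in 0 of 12 alternative fits of set 1 over the controls (log2 fold change -0.54 to 0.08) and in 0 of 11 of set 2 over them. Under the FPKM table's names the opposite directions also held for CXCL1 (0.68), CXCL2 (1.03), CXCL3 (0.91), CXCL8 (0.86) and CXCL11 (2.42). The controls of these contrasts include set 1 replicate 1 and control replicate 2, which stood apart from their groups. In the fits without them, sgUFM1 over set 1 and set 2 over the controls for sgUFL1 had log2 fold changes of -0.00 and 0.23 for CXCL1 and of -0.41 and -0.71 for CXCL11, so that the opposite directions did not hold for these genes. They were 0.23 and -0.20 for CXCL2, 0.20 and -0.02 for CXCL3 and 0.18 and -0.20 for CXCL8. CCL2 was lower under both guides by the FPKM table's names, by mean log2 differences of -1.53 for sgUFM1 and -1.40 for sgUFL1. By the count table's names these differences were -0.32 and -0.19. The last, set 1 over the controls for sgUFL1, came from groups that overlapped. CCL2 was called there in 0 of 12 alternative fits (log2 fold change -0.25 to -0.00).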

How the results depend on the processing

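Of 481 recomputed member fold changes, 458 stayed within their spread, 22 moved by more and 1 called value reversed: CXCL8 in set 2 against the controls for sgUFL1, -0.43, was 0.07 with GC and length offsets. Another 18 values that were not called changed sign, such as CXCL1 there, -0.33, which was 0.23 without control replicate 2. CCL2 stayed called in every alternative of the 4 comparisons in which it was called. Counts of genes called moved more. In the sgUFM1 libraries against the controls for sgUFL1 they were 1503, 2315 with no filter and 275 to 4196 with a library left out, and members called were 4 and 1 to 6. Against set 1 they were 1456, and 118 to 4080 with a library left out; members called were 1, 6 with no filter and 1 to 4 with a library left out. In set 1 against the controls they were 165, 0 with RLE scaling, 1921 with no filter, 1696 with DESeq2, 0 with the replicate block, 0 with GC and length offsets, 0 to 2419 with a library left out and 4829 without both libraries that stood apart, where 5 members were called and not 0; at an unadjusted p under 0.05 the edgeR fits gave 4205, and 4274 with RLE scaling, 4872 with the block and 1053 with offsets. In set 2 against the controls they were 5438, 1376 with offsets and 2486 to 6985 with a library left out; members called were 3, 1 with offsets and 1 to 5. Against set 2 the replicate block gave 4906 genes and not 5697. Same-numbered libraries did not deviate together in every pair of any comparison, so the numbers were not taken as pairing. The cause of these moves was not tested. Depth limits CCL5, CXCL10 and CXCL16, at 31 reads or fewer in every library. The SD and SE include the spread between replicates, which may be technical. The bound of 3 reads for the library without CXCL10 reads covers counting error only.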
